A study of Homo sapiens with 6 samples.

Results

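The 10 genes described here belong to the circadian clock: PER1, PER2, PER3, CRY1, CRY2, NR1D1, NR1D2, DBP, TEF and BHLHE41. They were taken by name from a table of 56303 gene entries, and all 10 were found. The RNA came from AGS, an established cell line grown from a human gastric adenocarcinoma, although 1 label field calls the source a tissue. In 3 libraries the cells had received a small interfering RNA (siRNA) against SRSF2, a serine/arginine-rich splicing factor (siSRSF2), and the 3 reference libraries carry the label wild-type (WT). The comparison asks how RNA levels differ when SRSF2 is silenced. The labels give no control siRNA for the WT cells, no siRNA sequence, no time of harvest and no treatment to synchronise the clocks of the cells. Nor is it said whether replicates were separate cultures. The p-values therefore measure the spread between these libraries only, which may be technical.

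In the mammalian clock, the proteins CLOCK (or its relative NPAS2) and BMAL1 (gene name ARNTL in the table) bind E-box sequences as a pair and switch on the PER and CRY genes, whose proteins return to inhibit that pair. The same pair drives NR1D1 and NR1D2, which encode the nuclear receptors REV-ERBα and REV-ERBβ. These repress BMAL1 at sites that the ROR receptors use to activate it. DBP and TEF are PAR-bZIP activators of genes with D-box sequences, and BHLHE41 (DEC2) is a repressor that competes for E-boxes. In a culture that has not been synchronised, the clocks of single cells drift apart in phase, and a bulk RNA level averages over them.

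Promoter sequences of all 10 members were found in RefSeq (GRCh38.p14), as 14 windows of 300 bases each. CACGTG, the E-box core, occurred in 5 of the 14 windows (35.7%), against 7.26% of all 35116 promoter windows of the same length. The windows with it belonged to PER1, NR1D2, TEF (both windows) and BHLHE41. In the 250 bases before the start of transcription, the members' windows had 44.8 to 81.6% GC. Shares over all windows, here and below, were not matched for GC. The sites are shown here in 30 bases each, because the E-box is the sequence through which CLOCK, NPAS2 and BMAL1 act; capitals mark the match, read 5′ to 3′ on the strand of the gene.
PER1, chr17:8152560-8152589, minus strand: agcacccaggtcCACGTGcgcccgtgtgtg
NR1D2, chr3:23945954-23945983, plus strand: ggcgggcggggaCACGTGaggccgctcggc
NR1D2, chr3:23946004-23946033, plus strand: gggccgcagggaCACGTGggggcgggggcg
TEF, chr22:41367248-41367277, plus strand: gcgcgacagctcCACGTGctgcagctggcg
TEF, chr22:41381737-41381766, plus strand: cacctggccccgCACGTGtctatcttatcc
BHLHE41, chr12:26125068-26125097, minus strand: tggtacgttccgCACGTGagctgggtgctg

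The D-box, through which DBP and TEF act, was searched as TTATGTAA and TTACGTAA on both strands. TTATGTAA occurred in 2 of the 14 windows (0.886% of all windows), 1 of PER3 and 1 of NR1D2, where it lies on the opposite strand. TTACGTAA occurred in the window of PER2 (0.125% of all windows) and spans the start of transcription there. The core of the site that REV-ERB and ROR receptors bind, AGGTCA, occurred in 3 windows, both of CRY2 and that of PER1 (13.8% of all windows). No match shared bases with a match of another of these words. CRY1, NR1D1 and DBP held none of the 4 searched words in these windows, and a match is a description of the sequence only.
PER2, chr2:238288595-238288624, minus strand: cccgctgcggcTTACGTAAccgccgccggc
PER3, chr1:7784103-7784132, plus strand: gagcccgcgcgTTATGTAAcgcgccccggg
NR1D2, chr3:23945916-23945945, plus strand: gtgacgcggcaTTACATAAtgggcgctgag

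Total counts lay between 47518943 and 50021152 in WT and between 26610937 and 36651623 in siSRSF2 libraries. Levels are given as CPM, counts per 1000000 counts after TMM scaling, and 3 counts equal 0.0630 to 0.0657 CPM in a WT and 0.0778 to 0.110 CPM in a siSRSF2 library. Of all counts from 1 to 10, 80.2% were even numbers, so single counts are not independent, and the counting error is larger than a count implies. SRSF2 stood at 44.5, 46.4 and 44.1 CPM in WT and at 21.6, 21.8 and 24.9 CPM in siSRSF2 libraries (log2 fold change -0.98, SE 0.064, edgeR adjusted p = 4.39e-13). With MFSD11 on the opposite strand it shares 1106 bases (36.7% of its exons). MFSD11 was called lower as well (log2 fold change -0.41, edgeR adjusted p = 2.55e-06). The gene to which reads from these shared bases were assigned is unknown. The nuclear RNA MALAT1 took 2.84 to 3.17% of counts in WT and 5.98 to 6.60% in siSRSF2 libraries, and its part in the results was not tested. All 6 epithelial markers searched were detected, led by KRT8 and KRT18, with KRT8 reaching 3387 CPM. Of the leukocyte markers, PTPRC and CD3E did not exceed 0.260 and 0.0519 CPM, and of the endothelial markers VWF did not exceed 0.202 CPM. Other endothelial genes were detected, with CDH5 at 2.12 to 2.39 CPM in WT and 0.699 to 1.41 CPM in siSRSF2 libraries, and PECAM1 at 0.759 to 0.882 and 0.0519 to 0.346 CPM. The summed level of 8 fibroblast and endothelial markers was 23.0 to 23.2 CPM in WT and 43.9 to 49.2 CPM in siSRSF2 libraries, with 4 genes higher and 2 lower and COL1A1 (at most 37.6 CPM) giving most of it. The part of that list in the results below was not tested.

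DBP, PER1 and NR1D2 rose in siSRSF2 cells, PER2 and CRY1 fell slightly, and the other 5 members did not pass the test. A gene passed at an adjusted p under 0.05 in edgeR's quasi-likelihood test, with Benjamini-Hochberg adjustment over 23689 tested genes. Of the 10 members, all of which were tested, 3 were higher, where 30.1% of all tested genes were, and 2 were lower, where 29.0% were. In either direction 5 of 10 passed, against 59.1% of all tested genes. The groups did not overlap in 6 of 10, against 63.8%, so by count the clock genes moved about as often as the transcriptome did. DBP alone of the 10 passed with a change of more than 2-fold, which 13.4% of tested genes did upward and 5.91% downward. The median log2 fold change was -0.06 over the members and 0.02 over all tested genes. In bulk RNA, fewer cells that express a gene and less of its RNA per cell cannot be told apart.

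**Figure D1:**
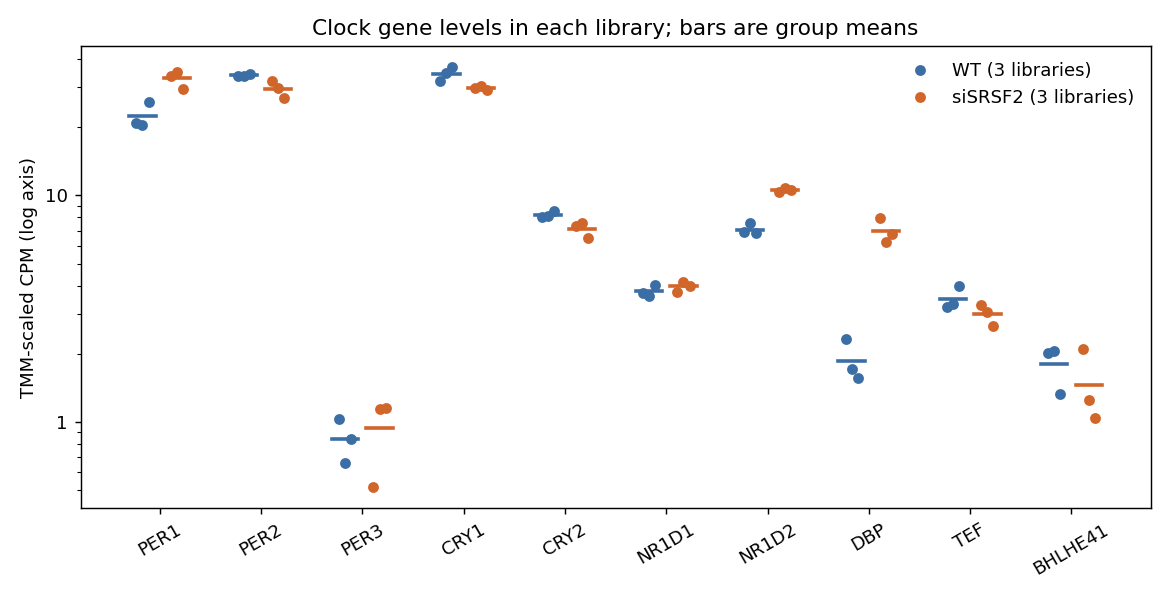
TMM-scaled CPM on a log axis for the 10 clock genes, with 1 point per library and a bar at the mean of each group of 3. The DBP points of the 2 groups lie far apart (1.56 to 2.33 CPM in WT, 6.23 to 7.91 CPM in siSRSF2), whereas those of PER3, NR1D1, TEF and BHLHE41 overlap.

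The period genes encode the proteins that, bound to cryptochromes, carry the inhibitory signal back to the nucleus. PER1 (chromosome 17, 8140472 to 8156506, minus strand, 22 merged exons) stood at 20.9, 20.4 and 25.9 CPM in WT and at 33.8, 35.3 and 29.6 CPM in siSRSF2 libraries. All 3 siSRSF2 libraries were above all 3 WT libraries, of which replicate 3 was the highest. The change was 1.47-fold (log2 fold change 0.55, SE 0.087, edgeR adjusted p = 2.28e-05). An offset for GC content and length reduced it to 0.26 (edgeR adjusted p = 0.00748), and the longest annotated PER1 transcript has 62.7% GC, the highest of the 10. PER1 shares 30 exon bases with the entry RP11-599B13.6 on the same strand, which rose from 0.772 ± 0.202 to 1.98 ± 0.213 CPM (SD, n = 3; log2 fold change 1.35, edgeR adjusted p = 3.44e-05).

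PER2 (chromosome 2, 238244038 to 238290102, minus strand, 24 merged exons) went the other way. In WT it stood at 33.6, 33.6 and 34.5 CPM, and in siSRSF2 libraries at 32.0, 29.8 and 27 CPM. The WT libraries lay close together, and every siSRSF2 library was below them, the nearest by little. PER2 fell by 0.20 on the log2 scale (SE 0.064, edgeR adjusted p = 0.0101). The call ended with scaling by library totals (-0.07, edgeR adjusted p = 0.376) and without siSRSF2 replicate 3 (-0.14, edgeR adjusted p = 0.061). PER2 also did not pass against a change of 1.2-fold (edgeR adjusted p = 0.757). It shares 188 bases with the entry AC096574.4 on the opposite strand, which fell as well (log2 fold change -0.33, edgeR adjusted p = 0.0157).

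PER3 (chromosome 1, 7784320 to 7845177, plus strand, 24 merged exons), the period gene not needed for the core loop in mice, had the lowest mean level of the members in either group. In WT its counts were 49, 30 and 40, and in siSRSF2 libraries 14, 44 and 40. The siSRSF2 libraries held both the lowest level (0.515 CPM in replicate 1) and the highest (1.15 CPM in replicate 3), so the groups overlapped. PER3 did not pass (log2 fold change 0.18, 95% interval -0.45 to 0.82, edgeR adjusted p = 0.642), an interval that leaves room for changes as large as that of PER1. Leaving out siSRSF2 replicate 1 moved the value to 0.45, and leaving out siSRSF2 replicate 2 or 3 or WT replicate 2 brought it to 0.02. UTS2 and RP3-467L1.4 share 868 and 482 bases with PER3 on the opposite strand and reached no more than 4 and 11 counts in a library.

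The cryptochromes are the more potent repressors of the CLOCK and BMAL1 pair. CRY1 (chromosome 12, 106991364 to 107093829, minus strand, 14 merged exons) stood at 31.9, 34.7 and 36.9 CPM in WT and at 29.9, 30.4 and 29.1 CPM in siSRSF2 libraries. The groups did not overlap, and the siSRSF2 libraries lay closer together than the WT libraries. CRY1 fell by 0.21 on the log2 scale (SE 0.063, edgeR adjusted p = 0.00564). CRY1 did not pass with scaling by library totals (-0.08, edgeR adjusted p = 0.299), with the GC and length offset (-0.11, edgeR adjusted p = 0.121) and against a change of 1.2-fold (edgeR adjusted p = 0.697). Its longest transcript has 37.2% GC, the lowest among the members. The entry RP11-797M17.1 shares 94 bases with CRY1 on the opposite strand and held at most 3 counts.

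CRY2 (chromosome 11, 45847118 to 45883248, plus strand, 14 merged exons) differed by a like amount from a lower level. It stood at 8.0, 8.14 and 8.51 CPM in WT and at 7.32, 7.52 and 6.49 CPM in siSRSF2 libraries, without overlap. It did not pass (log2 fold change -0.21, SE 0.10, 95% interval -0.42 to 0.01, edgeR adjusted p = 0.0916). With the GC and length offset it passed (-0.36, edgeR adjusted p = 0.00439), as it did without the filter on low counts (-0.28, edgeR adjusted p = 0.0357), and with scaling by library totals its value was -0.08. CRY1 and CRY2 thus exchanged their calls under the offset, and neither call was firm.

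The REV-ERB genes, which encode haem-binding repressors of BMAL1, separated. NR1D2 (chromosome 3, 23945260 to 23980618, plus strand, 10 merged exons) stood at 6.88, 7.53 and 6.81 CPM in WT and at 10.3, 10.8 and 10.6 CPM in siSRSF2 libraries. The siSRSF2 libraries agree within 0.226 CPM (SD) and all lay above WT. The rise was 1.5-fold (log2 fold change 0.58, SE 0.098, edgeR adjusted p = 1.13e-05). NR1D2 shares exon bases with no other entry.

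NR1D1 (chromosome 17, 40092787 to 40100725, minus strand, 8 merged exons) stood at 3.69, 3.61 and 4.03 CPM in WT and at 3.75, 4.15 and 3.98 CPM in siSRSF2 libraries. The groups overlapped throughout, and the gene did not pass (log2 fold change 0.07, 95% interval -0.21 to 0.36, edgeR adjusted p = 0.681). The sign of this value turned with the GC and length offset (-0.06) and without the filter on low counts (-0.002), and with scaling by library totals it was 0.20. NR1D1 ends inside THRA, the thyroid hormone receptor α gene on the opposite strand, and shares 263 of its exon bases (9.49%) with it. THRA rose from 38.6 ± 2.50 to 79.7 ± 2.76 CPM (SD, n = 3; log2 fold change 1.05, SE 0.055, edgeR adjusted p = 7.20e-15). None of the sources used here states whether counting used strand, so the gene to which reads from the shared bases were assigned is unknown.

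DBP (chromosome 19, 48630030 to 48637438, minus strand, 2 merged exons) had the largest change of the 10. This D-box activator is a direct output of the CLOCK and BMAL1 pair. It stood at 2.33, 1.71 and 1.56 CPM in WT, from counts of 111, 78 and 74, and at 7.91, 6.23 and 6.73 CPM in siSRSF2 libraries, from counts of 215, 240 and 233. The lowest siSRSF2 library was well above the highest WT library, although siSRSF2 libraries were the shallower ones. The rise was 3.70-fold (log2 fold change 1.89, SE 0.16, edgeR adjusted p = 8.18e-11), and 95.5% of tested genes had a lower log2 fold change. Over the 16 alternative settings its log2 fold change stayed between 1.72 and 2.08, and it passed in all of them. The 2 merged exons hold 6544 bases, most of the stretch between the start and end of the gene. Spliced and intron-retaining RNA of DBP therefore cannot be told apart in these counts. DBP shares 661 bases (10.1% of its exons) with SPHK2 on the opposite strand, and SPHK2 fell, from 4.82 ± 0.385 to 3.69 ± 0.350 CPM (log2 fold change -0.39, edgeR adjusted p = 0.0174). The SPHK2 call ended with scaling by library totals (edgeR adjusted p = 0.112), against a change of 1.2-fold (0.134), without WT replicate 2 (0.0747) and without siSRSF2 replicate 3 (0.0607).

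TEF, the PAR-bZIP relative of DBP (chromosome 22, 41367333 to 41399326, plus strand, 6 merged exons), did not follow it. In WT it stood at 3.23, 3.30 and 3.96 CPM, in siSRSF2 libraries at 3.28, 3.06 and 2.66 CPM, and the groups overlapped. TEF did not pass (log2 fold change -0.23, 95% interval -0.55 to 0.10, edgeR adjusted p = 0.222). The value was -0.14 without WT replicate 3 and -0.10 with scaling by library totals.

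BHLHE41 (chromosome 12, 26120026 to 26125127, minus strand, 5 merged exons) stood at 2.01, 2.06 and 1.33 CPM in WT and at 2.10, 1.25 and 1.04 CPM in siSRSF2 libraries. Replicate 1 of siSRSF2 was the highest of all 6 libraries and the other siSRSF2 libraries were the lowest. The gene did not pass (log2 fold change -0.33, 95% interval -0.85 to 0.19, edgeR adjusted p = 0.278). Without siSRSF2 replicate 1 it passed (-0.64, edgeR adjusted p = 0.044), and without siSRSF2 replicate 3 the value was -0.15. Without WT replicate 3 it was -0.51. SSPN shares 162 bases with BHLHE41 on the opposite strand and held no more than 8 counts in a library.

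Levels of different genes were compared per kilobase of merged exon (CPM per kb), a length that can exceed that of any 1 transcript. For DBP it is 6544 bases, which cover most of the gene, so its place in the order may be too low. In WT, CRY1 was highest at 6.82 ± 0.497 CPM per kb (SD, n = 3), followed by PER2 at 4.93 ± 0.0829 and PER1 at 3.20 ± 0.433 CPM per kb. NR1D1 (1.36 ± 0.0791), CRY2 (1.33 ± 0.0431) and NR1D2 (1.22 ± 0.0681 CPM per kb) formed a run in which neighbours overlapped between libraries. TEF (0.742 ± 0.0853), BHLHE41 (0.456 ± 0.104), DBP (0.285 ± 0.0625) and PER3 (0.104 ± 0.0230 CPM per kb) followed, and of these neighbours BHLHE41 and DBP overlapped.

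In siSRSF2 cells the length-scaled order was different in the places where a member had risen. PER1 (4.70 ± 0.421 CPM per kb) stood next to PER2 (4.30 ± 0.367 CPM per kb), and the ranges of the libraries overlapped. NR1D2 (1.82 ± 0.0388 CPM per kb) lay above NR1D1 (1.43 ± 0.0719 CPM per kb) without overlap. DBP, in place 9 of 10 in WT, took place 7 at 1.06 ± 0.132 CPM per kb, overlapping with CRY2 (1.15 ± 0.0881 CPM per kb). CRY1 stayed highest and PER3 lowest.

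**Figure D2:**
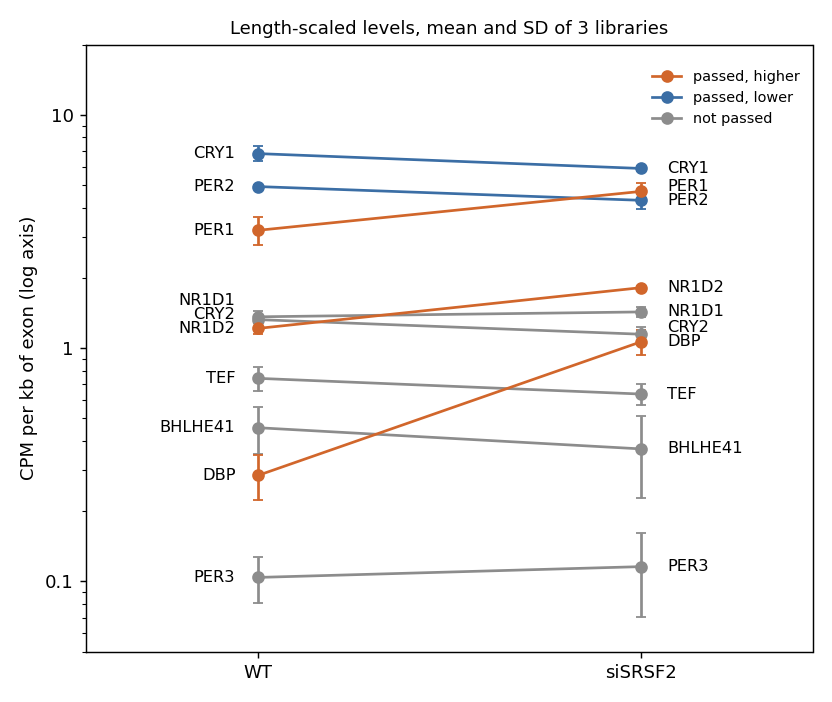
CPM per kilobase of exon on a log axis, mean and SD of 3 libraries, for each clock gene in WT and siSRSF2, coloured by whether and in which direction it passed the test. DBP crosses BHLHE41 and TEF (0.285 to 1.06 CPM per kb), and PER1 reaches PER2.

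Whether related genes changed by different amounts was measured as the log2 ratio of their CPM in each library, with 0.5 CPM added to both. Of 9 such ratios, 5 did not overlap between the groups. Of all tested genes taken singly, 63.8% did not overlap, and ratios of other gene pairs were not computed. PER1 over PER2 was -0.59 ± 0.16 in WT and 0.15 ± 0.08 in siSRSF2 libraries (mean log2 ratio, SD, n = 3), a difference of 0.74. NR1D1 over NR1D2 was -0.82 ± 0.14 in WT and -1.31 ± 0.04 in siSRSF2 libraries, a difference of -0.49. DBP over TEF went from -0.77 ± 0.36 to 1.09 ± 0.15, the widest difference of the 9 (1.86).

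Genes with opposed roles gave the other non-overlapping ratios. DBP over NFIL3, a repressor that binds the same D-box, went from -2.37 ± 0.33 to -1.29 ± 0.10 (mean log2 ratio, difference 1.08, and 0.68 with 2 CPM added). NR1D1 over RORA, which oppose each other at BMAL1, went from 0.42 ± 0.14 to -0.85 ± 0.10 (difference -1.27). In the exact permutation test, two-sided, each of these 5 had p = 0.1, the lower limit for 3 libraries against 3 (0.18 after Benjamini-Hochberg adjustment over the 9), and several share a gene.

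The other 4 ratios overlapped. CRY1 over CRY2 was 2.0 ± 0.06 in WT and 2.0 ± 0.08 in siSRSF2 libraries (exact permutation p = 1), with a difference of -0.01 that turned to values from 0.003 to 0.016 when any of 4 libraries was left out. PER1 over PER3 (difference 0.48, exact permutation p = 0.2), PER2 over PER3 (-0.27, p = 0.5) and BHLHE41 over its relative BHLHE40 (-0.36, p = 0.2) rest on low counts of PER3 and BHLHE41. Without siSRSF2 replicate 1 these differences were 0.22, -0.56 and -0.57. PER2 over PER3 also moved without siSRSF2 replicate 2 (-0.16), siSRSF2 replicate 3 (-0.08) or WT replicate 2 (-0.17).

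**Figure D3:**
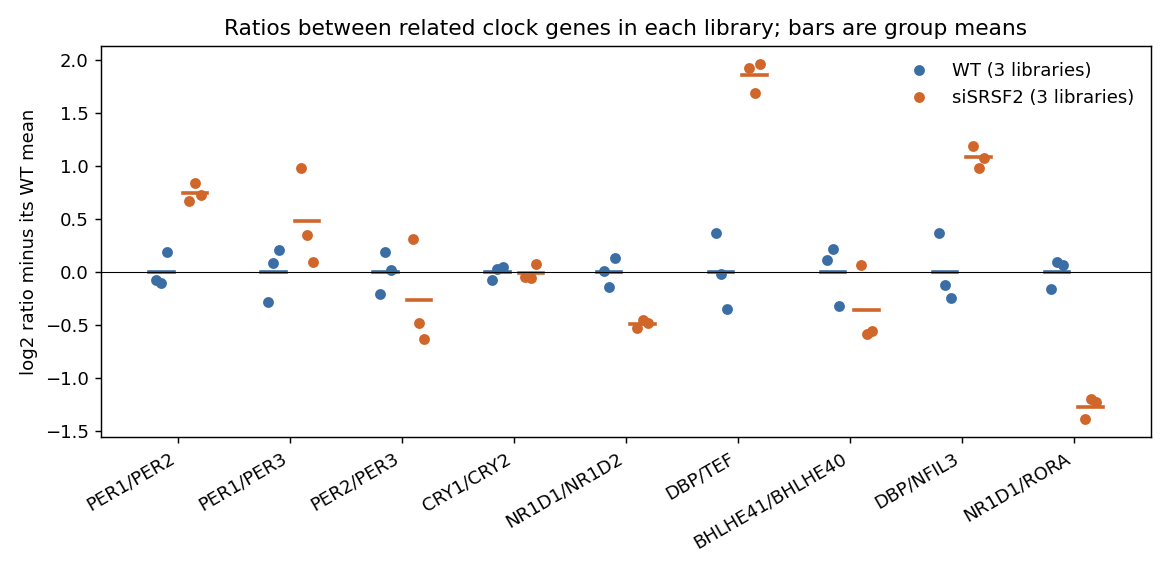
Log2 ratios of related clock genes in each library, drawn relative to the WT mean of each ratio, with bars at group means of 3 libraries. DBP over TEF (1.86 above WT) and NR1D1 over RORA (1.27 below WT) lie farthest from 0, and CRY1 over CRY2 stays at 0.

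The genes of the positive limb, which stand upstream of the 10, all fell. All 4 activators passed as lower, where 29.0% of all tested genes did, with a median log2 fold change of -0.60. NPAS2, which can replace CLOCK as partner of BMAL1, stood at 16.4, 16.6 and 16.5 CPM in WT and at 3.83, 3.87 and 4.62 CPM in siSRSF2 libraries. It fell by 2.0 on the log2 scale (SE 0.10, edgeR adjusted p = 2.40e-15). CLOCK fell from 51.4 ± 0.671 to 31.8 ± 1.18 CPM (SD, n = 3; log2 fold change -0.70, edgeR adjusted p = 2.83e-11). ARNTL, the gene of BMAL1, fell from 12.7 ± 1.41 to 8.95 ± 0.961 CPM (log2 fold change -0.51, edgeR adjusted p = 9.01e-05). ARNTL2, its paralogue, fell from 39.6 ± 1.12 to 31.0 ± 1.93 CPM (log2 fold change -0.35, edgeR adjusted p = 1.75e-05) and did not pass against a change of 1.2-fold (0.0587). Of the members named above as targets of this activator pair, PER1, NR1D2 and DBP were called higher, PER2 and CRY1 were called lower, and PER3, CRY2 and NR1D1 did not pass. The remaining members, TEF and BHLHE41, did not pass either.

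RORA, a receptor that activates BMAL1 at the sites that REV-ERB proteins repress, rose. It stood at 3.0, 2.36 and 2.72 CPM in WT and at 7.80, 7.45 and 7.30 CPM in siSRSF2 libraries. The groups lay far apart, and the rise was 2.78-fold (log2 fold change 1.48, SE 0.13, edgeR adjusted p = 2.44e-10). RORB, a relative of RORA, held no more than 6 counts in any library and was not tested.

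Other repressors and PAR-bZIP factors went different ways. NFIL3, which opposes DBP, rose from 11.6 ± 0.712 to 17.7 ± 0.850 CPM (log2 fold change 0.60, edgeR adjusted p = 4.08e-07). BHLHE40, the relative of BHLHE41 and by far the more abundant (172 ± 4.69 CPM in WT), did not pass (log2 fold change 0.11, edgeR adjusted p = 0.06). It passed as higher with scaling by library totals (0.24), with a filter at a mean CPM of 1 (0.16), with halved counts (0.14) and without siSRSF2 replicate 3 (0.16). HLF, the remaining PAR-bZIP gene, had counts of 19, 26 and 20 in WT and 0, 4 and 12 in siSRSF2 libraries. Its fall (log2 fold change -1.54, SE 0.59, edgeR adjusted p = 0.0288) was lost on leaving out any library other than siSRSF2 replicate 3 (edgeR adjusted p from 0.0511 to 0.115). CIART held at most 8 counts and was not tested.

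**Figure D4:**
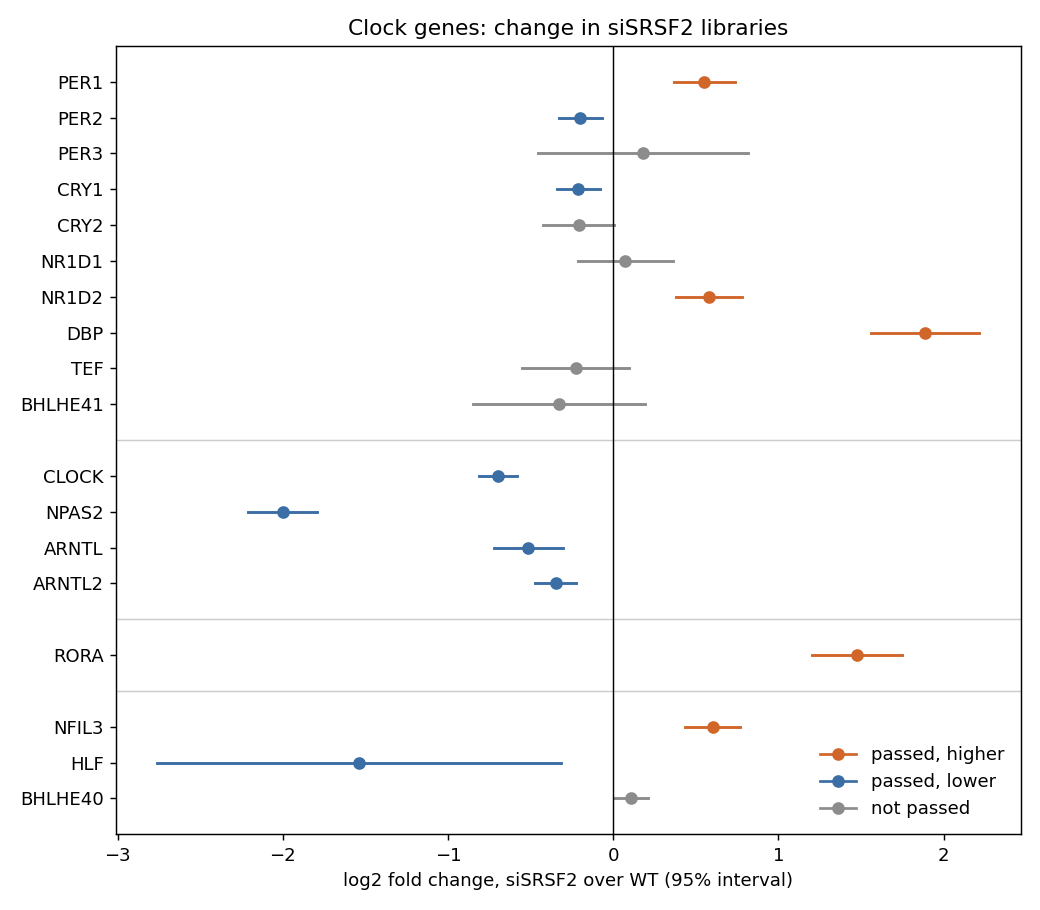
Log2 fold change, siSRSF2 over WT, with 95% intervals from edgeR, for the 10 members (top block) and, below them, the activators, RORA and the other repressors and PAR-bZIP factors. The 4 activators lie left of 0 and RORA right of it, while the members lie on both sides, with DBP (1.89) farthest right among them.

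Kinases and ubiquitin ligases set the life span of PER and CRY proteins. Of 14 listed, 13 were tested, 3 were higher, 6 lower and 4 without a call (median log2 fold change -0.18), where 30.1% of all tested genes were higher and 29.0% lower. USP7, a deubiquitinase, fell from 379 ± 6.53 to 237 ± 12.5 CPM (-0.68), CSNK2A1, a catalytic subunit of casein kinase II, by 0.55 and PRKAA1, a catalytic subunit of AMPK, by 0.42 on the log2 scale. The casein kinase genes CSNK1D and CSNK1E, whose products phosphorylate PER proteins, were singled out after their values were seen. CSNK1E rose from 19.3 ± 0.496 to 26.5 ± 0.833 CPM (log2 fold change 0.46, and 0.27 with the GC and length offset). CSNK1D fell from 63.1 ± 3.44 to 55.6 ± 1.27 CPM (-0.18, edgeR adjusted p = 0.00423), with -0.42 under that offset, and did not pass with scaling by library totals (edgeR adjusted p = 0.428) or against 1.2-fold (0.884).

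Of 11 tested cofactors that clock proteins recruit, 6 were lower and 1 was higher, where 29.0% and 30.1% of all tested genes were, and 4 had no call (median log2 fold change -0.17, against 0.02 over all tested genes). SFPQ, an RNA-binding partner of PER complexes, fell from 2132 ± 54.4 to 1039 ± 68.3 CPM (log2 fold change -1.04). The acetyltransferase genes CREBBP (-0.91) and EP300 (-0.41), whose products act with CLOCK and BMAL1, fell. SIN3A, a corepressor scaffold, rose from 242 ± 6.08 to 374 ± 9.73 CPM (0.62). With scaling by library totals, 5 of the 11 were higher and 5 lower.

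Output genes of the clock, each of which also answers to other signals, were 6 higher and 3 lower of 12 tested (median log2 fold change 0.65), beside the same 30.1% and 29.0% of all tested genes. TSC22D3, a glucocorticoid-induced leucine zipper gene, rose 5.05-fold, from 4.47 ± 0.211 to 22.6 ± 2.96 CPM (edgeR adjusted p = 1.07e-16). PPARA, a nuclear receptor of fatty acid oxidation, rose 4.02-fold from 2.86 ± 0.451 CPM. WEE1, a kinase that holds cells before mitosis, rose from 22.0 ± 0.614 to 46.8 ± 1.29 CPM (2.13-fold). G6PC and AVP had no counts in any library.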

How the data were processed

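The values deposited for the 6 libraries are raw counts for each gene name, not normalized, beside a merged exon length. The tools in the submitters' processing notes are featureCounts 1.5.0-p3 and HISAT2 2.0.5, and the build named there is mm10, a mouse build. The table holds human genes. Of 35957 gene names found once in GENCODE 29, 93.3% had the same start and end, as did all 10 members, so positions are GRCh38. The sources used here state neither strand nor multi-mapping settings. Groups and replicate numbers came from sample titles.

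The test used edgeR 4.0.16 in R 4.3.3: filterByExpr (minimum count 10) kept 23689 genes and 99.9% of counts, followed by TMM factors and the robust quasi-likelihood F test with group as the only term. Each SE is the log2 fold change divided by the root of F. The common biological coefficient of variation was 6.27%. Replicates differed by more than sampling noise (chi-square per gene 3.83 to 8.75, and 1.91 to 4.37 when halved for read pairs). Each library was counted as 1 sample, although this excess cannot tell separate cultures from separate library preparations. The code was tested on simulated counts.

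Alternatives were DESeq2 1.42.0, voom in limma 3.58.1, RLE factors, library totals, 2 other filters, a replicate block, a 1.2-fold threshold and each library left out. An offset for GC content and length (98.99% of tested genes had values) and halved counts were added after seeing the data. The members and lists were chosen with earlier results of these data known. Named genes were SRSF2, the 10 members, tested genes of the activator, ROR and repressor lists, the 4 smallest p-values of each other clock list, and genes sharing exon bases with a member, of which a few are not reported here.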

Additional observations from a re-analysis of the deposited data

How the results depend on the processing

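PER1, NR1D2 and DBP were called higher under all 16 alternatives, with log2 fold changes of 0.26 to 0.68, 0.51 to 0.71 and 1.72 to 2.08. The 2 lower calls were less firm: 0 members were lower with scaling by library totals or against a change of 1.2-fold, and between 1 and 3 when single libraries were left out. PER2 was at -0.069 with library totals and -0.20 (not passed) against 1.2-fold, and between -0.25 and -0.14 without single libraries. CRY1 was at -0.081 with library totals, -0.11 with the GC and length offset and -0.21 (not passed) against 1.2-fold. CRY2 passed without the low-count filter (-0.28) and with the offset (-0.36), and BHLHE41 ranged from -0.64 to -0.15 without single libraries. Scaling by library totals moved the median log2 fold change of all tested genes from 0.02 to 0.15, and the calls from 7129 higher and 6862 lower to 8560 and 5492.

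Of the list of other repressors and PAR-bZIP factors, 2 were higher with library totals, with a mean CPM of at least 1 and with halved counts, against 1, and 0 were lower with the latter pair of settings. Without single libraries these counts ran from 1 to 2 and from 0 to 1. Co-regulators called higher were 5 with library totals, 3 with a mean CPM of at least 1 and 2 with the offset or halved counts, against 1. Ratios with 2 CPM added differed by 1.35 (DBP over TEF), 0.68 (DBP over NFIL3) and -0.98 (NR1D1 over RORA). CRY1 over CRY2 lay between -0.0518 and 0.0163 without single libraries. The cause of these shifts was not tested. PER3 was not tested at a mean CPM of at least 1, which it does not reach.

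Libraries with the same replicate number did not deviate together (correlations 0.01, -0.05 and -0.05), so the numbers were not taken as pairs. With a replicate block, 6927 genes were higher and 6770 lower, and 3 members were higher and 2 lower. Low counts limit PER3, BHLHE41 and HLF. Among the 10 members, PER3 and BHLHE41 have the widest intervals.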
